A study of Arabidopsis thaliana with 32 samples.

Results

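The comparison of tfiis-1 with Col-0 in seedlings that had received no heat shock comprised 1568 called sites, of 29485 in the whole series. All sites from both unheated lists were taken, and a site listed more than once for the same gene was counted once. Of these, 1527 were called higher in tfiis-1 and are named tfiis-1-higher here, and 41 were called higher in Col-0 and are named Col-0-higher. Each site is a summit, a single base pair at which the authors called the ChIP signal of one genotype above that of the other.

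RNA polymerase II (RNAPII) carrying serine-2 phosphorylation on the repeats of its C-terminal domain (S2P) was mapped by chromatin immunoprecipitation and sequencing in whole Arabidopsis thaliana seedlings. Col-0, the wild-type accession, and the mutant tfiis-1 were grown in vitro and harvested 14 days after stratification. Each genotype had 3 unheated ChIP libraries with 1 input, and further groups of both genotypes had received heat shock for 10 min, 30 min or 3 h. The labels name the mutant line without describing its allele. Because single libraries have no values in the lists, sequencing depth and the spread between replicates are unknown, and no single site has a replicate check. Seedlings are a mixture of organs, and lists of called sites cannot be used to check tissue identity. Both unheated lists come from the same 6 ChIP libraries. The intervals below are exact (Clopper-Pearson) 95% intervals for shares and order-statistic 95% intervals for medians. They cover counting error only, and summits and genes are not replicates.

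During transcription, RNAPII pauses, slides backwards and must be restarted, and TFIIS is the factor that stimulates the polymerase to cleave its own nascent transcript so that synthesis can go on. Serine-2 phosphorylation is laid down as the polymerase moves away from the promoter and usually accumulates towards the 3′ end of the gene. Plants that lack TFIIS are known for changed seed dormancy and are viable under ordinary growth conditions. The question here is how S2P RNAPII differed between the genotypes before any stress was applied.

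The difference was almost wholly in one direction, with 97.4% of the summits (96.5 to 98.1) tfiis-1-higher. The tfiis-1-higher summits lay in 1345 genes, which is 4.9% of the 27444 nuclear protein-coding genes, and the Col-0-higher summits lay in 31 genes, which is 0.113%. No gene was in both lists. Most tfiis-1-higher genes, 1178 of them, held 1 summit, 142 held 2, 24 held 3 and 1 held 4. The TFIIS gene itself (AT2G38560) was in 0 of the 8 lists of the series, which gives no check of the genotypes, because polymerase may cover a mutated locus as before.

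The tfiis-1-higher summits lay mostly in the 5′ part of the gene body, some way behind the start rather than at it. Position runs along the annotated gene, following transcription, with 0 for its first base and 1 for its last. The median was 0.397 (0.386 to 0.409), with quartiles of 0.269 and 0.554. In base pairs the median summit lay 1104.5 bp behind the start (1063 to 1136), with quartiles of 759 and 1685 bp. Between 500 and 1500 bp from the start lay 965 of the 1538 pairs of summit and gene, 62.7% (60.3 to 65.2); 11 summits lay inside 2 overlapping genes and were counted in each. Closer than 500 bp to the start lay 97, or 6.31% (5.14 to 7.64). The summit nearest to any start was 77 bp from it.

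**Figure D1:**
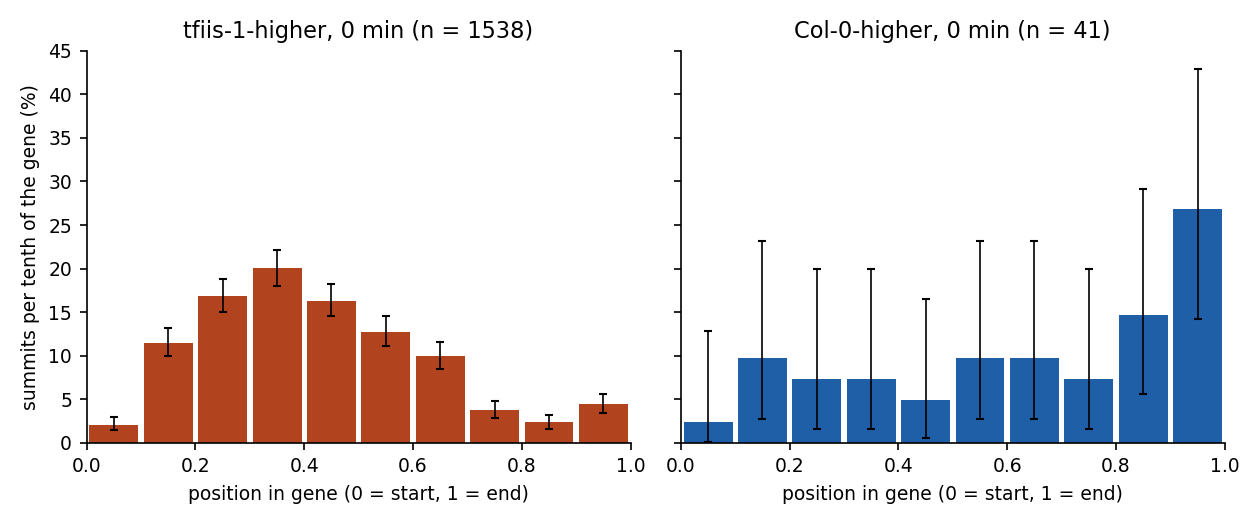
Share of summits per 0.1 of the gene at 0 min, in percent, for the tfiis-1-higher list (left, 1538 pairs of summit and gene) and the Col-0-higher list (right, 41 pairs). Bars are shares and whiskers are exact 95% intervals; the left distribution has its highest bar from 0.3 to 0.4 (308 summits) and the right one at the gene end.

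Of the 5 summits nearest to a gene start among genes with a symbol, the first lay in EIN2 (AT5G03280), the central membrane protein of ethylene signalling, 187 bp from the start of a gene of 5977 bp (TAIR10 chromosome 5, 787615). COL4 (AT5G24930), a member of the CONSTANS-like family, followed at 237 bp. SNF7.1 (AT4G29160), a subunit of the endosomal sorting machinery, had its summit at 249 bp. The remaining 2 were SDR3, a short-chain dehydrogenase/reductase, at 277 bp and HAB2, a protein phosphatase of abscisic acid signalling, at 293 bp. As a share of the gene, the summit lay at position 0.0313 in EIN2 and at 0.213 in SDR3, which is 1303 bp long.

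A minority of tfiis-1-higher summits lay at the very end of the gene: 68 summits in 68 genes fell in the last 10% of the gene. PUB38 (AT5G65200), a plant U-box protein, had its summit 7 bp from the end. XK-1 (AT2G21370), a xylulose kinase, and EXPA13 (AT3G03220), an expansin, each had one 21 bp from the end. ECT1 (AT3G03950), a YTH-domain protein, had one at 29 bp, and TED4 (AT2G26670), also known as HY1, the plastid heme oxygenase that makes the phytochrome chromophore, had one at 31 bp. The genes with a summit there had a median length of 2907.5 bp, close to that of all tfiis-1-higher genes. The 30 genes with a summit in the first 10% were much longer, with a median of 6752.5 bp. Only 6.31% of the summits lay closer than 500 bp to a start, so a bin set as a share of the gene favours long genes there.

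Both the distance from the start and the position as a share of the gene varied with gene length. In genes of up to 1500 bp the median summit lay 585 bp from the start (556 to 645), at position 0.524. In genes of more than 2500 and up to 3000 bp it lay at 1136 bp (1050 to 1245), at position 0.421. In genes above 7000 bp it lay at 2246 bp (1819 to 2633), at position 0.233. The distance from the start thus grew with gene length, but more slowly than the gene did, and the relative position moved towards the start. Among the longest genes with a symbol, TIL1 (AT1G08260), the catalytic subunit of DNA polymerase epsilon and 18039 bp long, held summits at 435 and 1081 bp from its start. SWEETIE (AT1G67140), a gene of sugar metabolism of 16684 bp, held 1 at 2560 bp. FdC1 (AT4G14890), a ferredoxin-like protein gene of 688 bp and the shortest with a symbol, held its summit at 576 bp, or position 0.838. Genes without a symbol reached further both ways, from 321 bp (AT1G72755, position 0.241) to 26499 bp (AT1G48090, positions 0.0400 and 0.0947).

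Longer genes were also called more often. The median length of the tfiis-1-higher genes was 2891 bp (2810 to 2996), against 2078 bp (2062 to 2093) over all nuclear protein-coding genes. When all genes were ranked by length and cut into 10 equal classes, 0.401% of the shortest class (0.200 to 0.716) and 11.2% of the longest class (10.03 to 12.4) were tfiis-1-higher. A longer gene offers more places for a summit, and the part of gene length in the comparisons between gene groups below was not tested. Genes with 1 summit had a median length of 2792.5 bp, those with 2 had 3756.5 bp and those with 3 or more had 4947 bp.

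**Figure D2:**
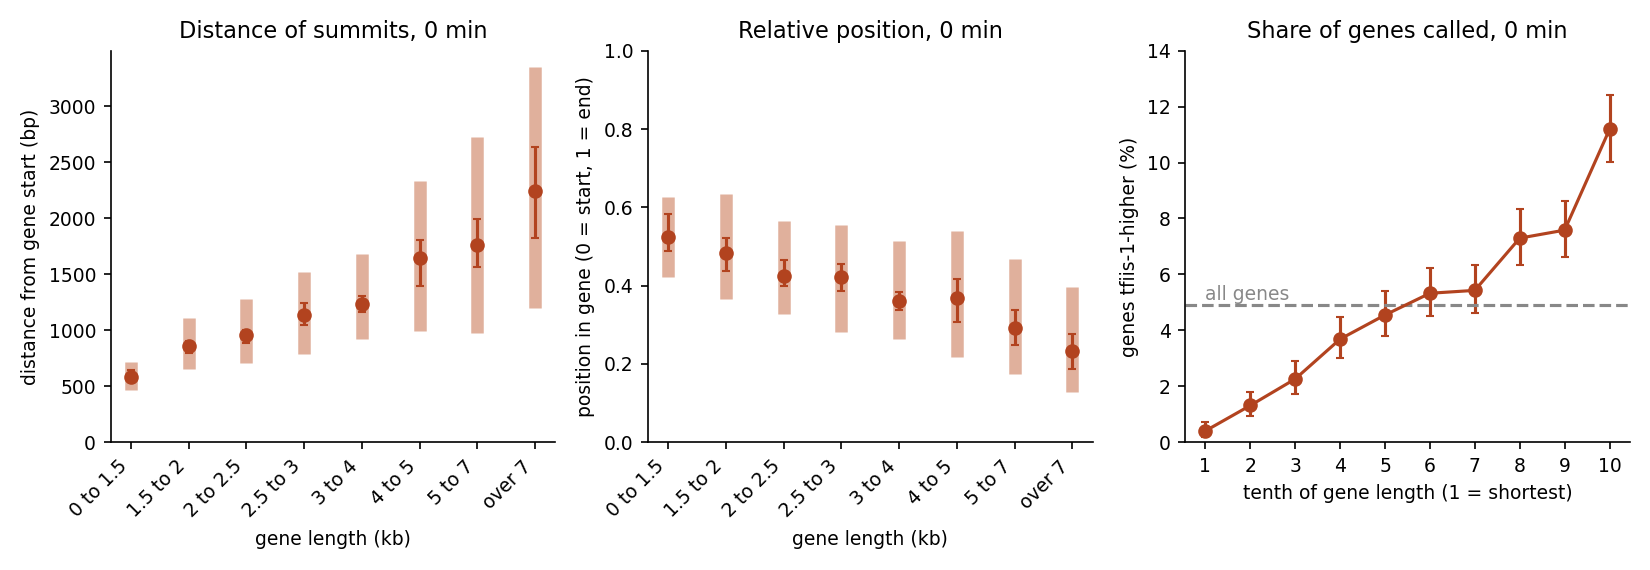
tfiis-1-higher summits at 0 min by gene length: distance from the gene start in bp (left) and relative position (middle) by class of gene length in kb, and the percentage of genes called in 10 equal classes of gene length (right). Points are medians or shares with 95% intervals, pale bars span the quartiles, and the dashed line is the share over all genes, 4.9%; the distance rises from 585 to 2246 bp while the relative position falls from 0.524 to 0.233.

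Where a gene held several summits, they were spread over the gene body. Over 193 gaps between neighbouring summits in the same gene the median was 772 bp (709 to 851), the smallest was 185 bp, and 3 were within 300 bp. The only gene with 4 summits was AT3G52250, 7232 bp long, with summits at positions 0.155, 0.444, 0.597 and 0.983. A further 24 genes held 3 each, and 9 of them are named here, the shortest. Among these is KNAT3 (AT5G25220), a homeobox transcription factor, with summits at 0.236, 0.452 and 0.627. MDAR4 (AT3G27820), a monodehydroascorbate reductase of peroxisomes, had them at 0.326, 0.483 and 0.608. AT2G29970, which the annotation also names SMXL7 and which is a repressor of strigolactone signalling, had them at 0.201, 0.421 and 0.614. The rest of the 9 were AT5G03140, a lectin receptor kinase, AT3G13040, PGLP1 (AT5G36700), the photorespiratory phosphoglycolate phosphatase, PP2A-4 (AT3G58500), a catalytic subunit of protein phosphatase 2A, MPK18 (AT1G53510), a mitogen-activated protein kinase, and VAB3 (AT1G20260), a subunit of the vacuolar proton pump. In these 9 shorter genes the last summit lay at 0.692 or before, but among all 24 it reached 0.994, in AT5G25270. PHYB, AT1G60070 and KAK also had their last summit near the gene end, at 0.979, 0.929 and 0.861; these 4 genes were picked out after their values were seen. The treatment of reads shared between near-identical gene copies is not stated.

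The calls were spread over the genome. The share of genes called tfiis-1-higher ran from 4.53% on chromosome 1 (4.06 to 5.04) to 5.51% on chromosome 3 (4.92 to 6.15). Of the 1345 genes, 49.4% (46.7 to 52.1) lay on the plus strand.

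Gene groups of known function were then counted in both lists. The 20 groups hold 349 genes, of which 47 were tfiis-1-higher and 7 Col-0-higher. Shares are set beside 4.9% and 0.113% over all genes, and no group was tested against other genes. All 20 groups were chosen with earlier results of these data known, so their shares and intervals are descriptions.

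Genes that make and splice RNA were among the tfiis-1-higher genes. Of 20 genes for SR proteins, the serine- and arginine-rich factors that select splice sites, 8 were called, 40% (19.1 to 63.9). Their 10 summits ran from position 0.188 to 0.832. RS41 (AT5G52040) had summits at 769 and 1716 bp from its start and SCL30A (AT3G13570) at 547 and 1161 bp. SR34 (AT1G02840) had 1 at 2197 bp, SR30 (AT1G09140) 1 at 1577 bp, RS31 (AT3G61860) 1 at 1130 bp, SCL30 (AT3G55460) 1 at 1029 bp and RS2Z32 (AT3G53500) 1 at 979 bp. RSZ22a (AT2G24590) stood apart from them, with its summit 261 bp from the gene end. The median length of the 20 genes was 2876.5 bp, above that of all genes and close to that of the tfiis-1-higher genes.

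Other groups of the RNA machinery held fewer calls. Of 9 genes for glycine-rich, PTB and UBP1-type RNA-binding proteins, 3 were called: PTB2 and PTB3, which are polypyrimidine tract-binding splicing regulators, and RBP45B. Of 15 core spliceosome genes, 2 were called, the large U2AF subunit gene ATU2AF65A at position 0.354 and MAC3B at 0.242. Among 22 genes for RNAPII subunits and elongation factors 3 were called: NRPB1 (AT4G35800), the largest subunit, which carries the C-terminal domain, NRPB2 (AT4G21710), the second largest, and GTA2 (AT4G08350), a plant SPT5. NRPB1 had its summit at 0.382 of a gene of 7571 bp, NRPB2 at 0.159 and GTA2 at 0.361 and 0.468. Among 18 genes for 3′ processing and termination 3 were called: FCA, an RNA-binding regulator of flowering, XRN3, a nuclear 5′ to 3′ exonuclease, and nPAP, a poly(A) polymerase. Their 4 summits lay between 0.191 and 0.274. In nonsense-mediated decay and decapping 2 of 7 genes were called, LBA1, the UPF1 helicase, and XRN4, the cytoplasmic 5′ to 3′ exonuclease. For the core spliceosome, elongation, 3′ processing and decay groups the lower bounds of the intervals, between 1.66% and 3.67%, lay below the 4.9% over all genes.

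Genes of light perception and of the circadian clock were called as well. Of 17 photoreceptor and light-signalling genes, 6 were tfiis-1-higher, 35.3% (14.2 to 61.7). PHYB (AT2G18790), the main red-light receptor of green seedlings, held 3 summits, at positions 0.115, 0.743 and 0.979. PHOT1 (AT3G45780), a blue-light receptor, held 2, at 0.293 and 0.404. The other 4 act in the nucleus downstream of the receptors. HY5 (AT5G11260), a transcription factor that promotes light responses, had its summit at 0.432, and COP1 (AT2G32950), the ubiquitin ligase that removes HY5, at 0.756. SPA1 (AT2G46340), the partner of COP1, had summits at 0.227 and 0.306, and DET1 (AT4G10180), a repressor of light responses, at 0.516. The median length of the group was 4037 bp.

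Of 24 clock genes 6 were tfiis-1-higher, 25% (9.77 to 46.7). TIC (AT3G22380), a nuclear regulator of the clock, held summits at 0.151, 0.244 and 0.411. AT5G64170, also named LNK1 and a transcriptional coactivator of clock genes, held summits at 0.271, 0.528 and 0.672. Its relatives AT3G12320 (LNK3) and AT5G06980 (LNK4) held 1 each, at 0.308 and 0.328. PRR9 (AT2G46790), a pseudo-response regulator expressed in the morning, had 1 at 0.367, and ZTL (AT5G57360), a blue-light-sensing F-box protein, 1 at 0.403. All 10 summits of the group lay within the first 0.672 of their genes. This was not particular to the group. Over the whole tfiis-1-higher list 3.77% of summits lay from 0.7 to 0.8, 2.34% from 0.8 to 0.9 and 4.42% beyond 0.9.

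Among groups of long genes the calls were uneven. Of 7 HECT ubiquitin ligase genes, with a median length of 8605 bp, 4 were called, 57.1% (18.4 to 90.101). UPL2 (AT1G70320) held a summit at 0.066, UPL6 (AT3G17205) at 0.127 and UPL4 (AT5G02880) at 0.624. KAK (AT4G38600), which limits trichome branching, held summits at 0.278, 0.803 and 0.861. Of 20 chromatin genes 4 were called: the remodelers SYD (AT2G28290) and CHR5 (AT2G13370) and the histone acetyltransferases HAC1 (AT1G79000) and HAC5 (AT3G12980). SYD held summits at 0.136 and 0.223, CHR5 at 0.402, HAC5 at 0.249, and HAC1 at both ends, at 0.144 and 0.981. Of 8 golgin and clathrin genes, GC5 and GC6 were called. None of the 4 genes for PIKK kinases and BIG was, with a median length of 17776 bp, which allows a share of up to 60.2%.

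The other groups had shares of 0% to 10% tfiis-1-higher, and every one of their intervals includes the 4.9% over all genes. Of 29 chaperone and heat shock factor genes 0 were called in either direction, and the exact interval allows up to 11.9%. This roster does not hold every chaperone gene. Outside it, Cpn60beta2 (AT3G13470), a chaperonin gene, and J20 (AT4G13830), a J-protein gene, were tfiis-1-higher, at 0.933 and 0.485. None of 28 rapid stress transcription factors and none of 14 touch and calcium genes was tfiis-1-higher, nor was any of 26 darkness and sugar starvation genes. In the unfolded protein response 1 of 17 genes was called, BZIP60 (AT1G42990), a transcription factor made active by unconventional splicing. In the jasmonate group 1 of 10 was called, LOX2 (AT3G45140), a chloroplast lipoxygenase with summits at 0.152 and 0.823. Nuclear photosynthesis genes, among the most transcribed in green tissue, gave 1 of 39, PETC (AT4G03280), the Rieske iron-sulfur protein. The 39 are a selection, and other photosynthesis genes outside it were tfiis-1-higher. PSB27 (AT1G03600), NPQ4 (AT1G44575) and PGR5 (AT2G05620) are examples, so the count does not stand for all such genes. Of 15 genes for actin, polyubiquitin, GAPC and eIF4A, EIF4A1 (AT3G13920) was called. These 8 groups hold short genes in part, with median lengths from 1361.5 bp to 3053 bp.

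**Figure D3:**
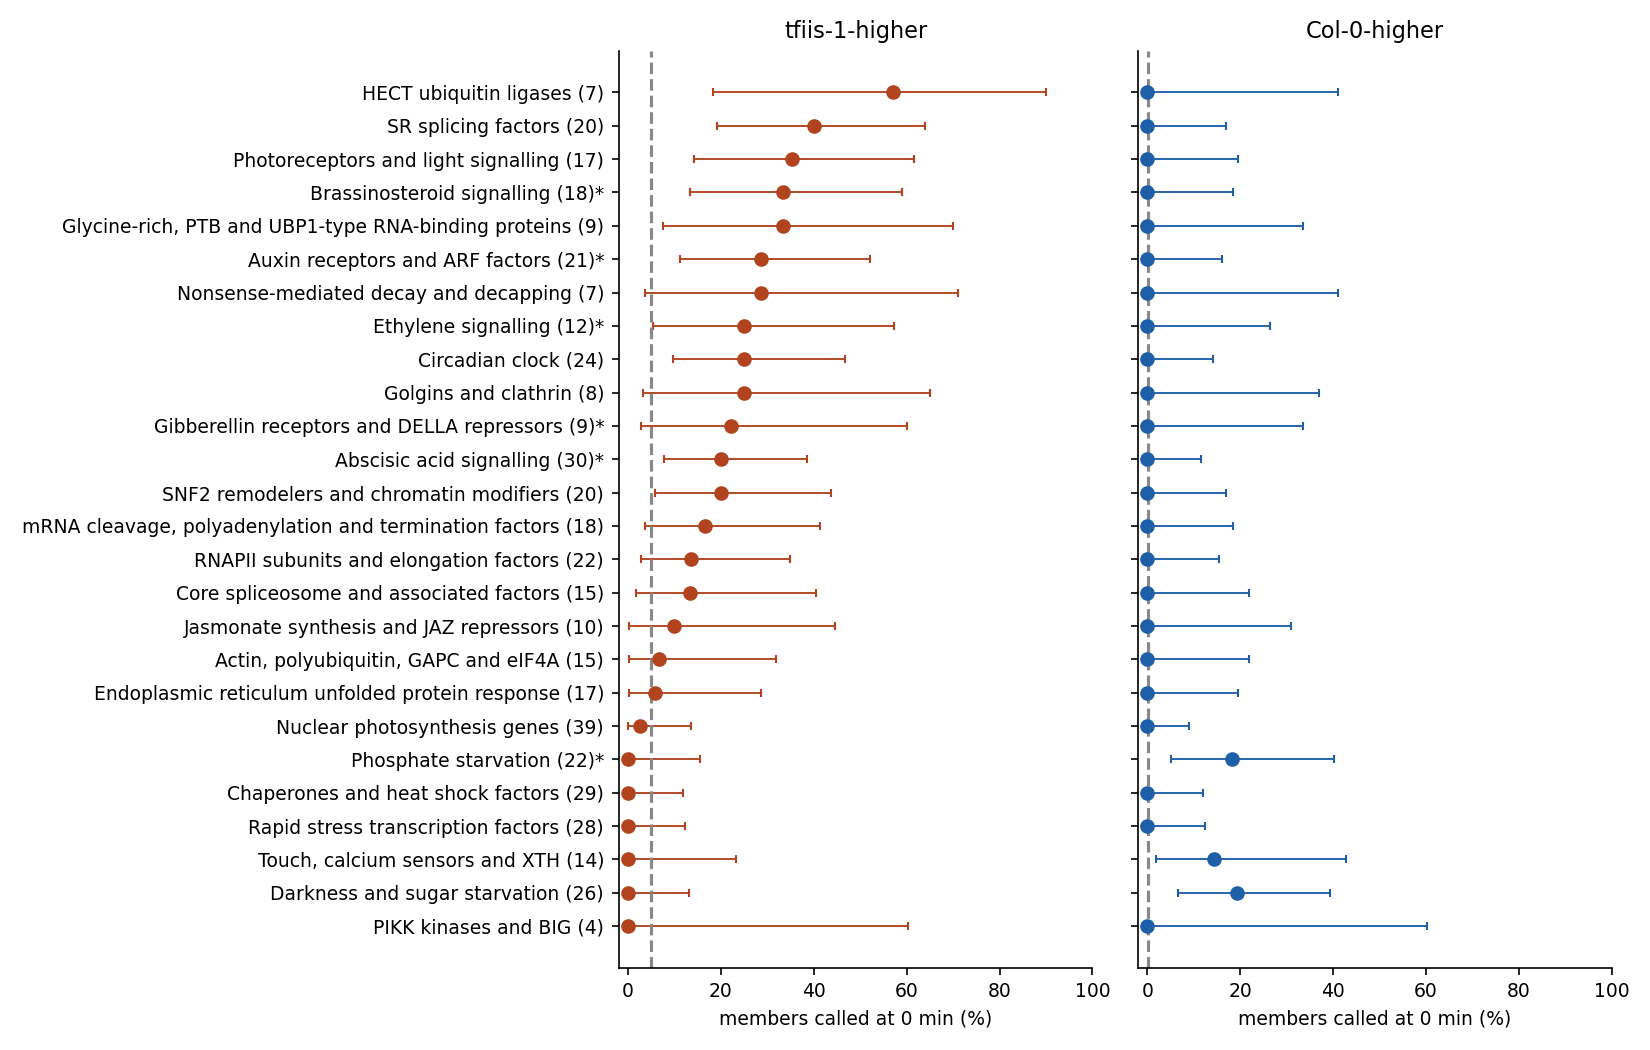
Percentage of the members of each gene group called tfiis-1-higher (left) and Col-0-higher (right) at 0 min, with exact 95% intervals. The number of members follows the name, and an asterisk marks rosters added after the lists were seen. The groups without an asterisk were chosen with earlier results of these data known. Dashed lines mark the shares over all genes, 4.9% and 0.113%; the SR splicing factors, at 40%, lie to the right of the line and the darkness group has points above 0 only in the right panel.

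The 31 Col-0-higher genes were few but had recognisable names, and 19 of them have a symbol. Of the 26 genes of darkness and sugar starvation, 5 were Col-0-higher, 19.2% (6.55 to 39.4), against 0.113% over all genes. ASN1 (AT3G47340), the dark-induced asparagine synthetase, held 3 summits, at 1338, 2086 and 2557 bp from its start (TAIR10 chromosome 3, 17440093, 17439345 and 17438874). BT2 (AT3G48360), a BTB and TAZ domain protein that responds to sugar and nitrogen, held 3, at 644, 885 and 1510 bp. DIN10 (AT5G20250), a dark-inducible raffinose synthase family gene, held summits at 2038 and 2793 bp. BT1 (AT5G63160), a relative of BT2, held 1 at 2136 bp, and AT2G33830, also named DRM2 and dormancy-associated, held 1 at 824 bp. The choice of this group was made with ASN1 and BT2 known to be Col-0-higher, so its count is a description.

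Of the 14 touch and calcium genes, 2 were Col-0-higher, 14.3% (1.78 to 42.8), against 0.113% over all genes. Both are classic touch-induced genes. This group too was chosen with earlier results of these data known, so its count is a description. TCH4 (AT5G57560), a xyloglucan endotransglucosylase/hydrolase of the cell wall, held summits at 745 and 1648 bp of 1675 bp. TCH3 (AT2G41100), a calmodulin-like calcium sensor, held 1, 75 bp from its end. The other groups had 0 Col-0-higher genes.

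The Col-0-higher genes outside these groups included enzymes of the cell wall and of sugar use. BGAL4 (AT5G56870), a beta-galactosidase, held summits at 0.154 and 0.270, BXL1 (AT5G49360), a beta-xylosidase, 1 at 0.980, and STP1 (AT1G11260), a monosaccharide transporter of the plasma membrane, 1 at 0.503. AT5G64120, also named PRX71, a peroxidase, held 1 at 0.755. FTM1 (AT1G43800), a stearoyl-ACP desaturase, held summits at 0.150 and 0.373, and RLP19 (AT2G15080), a receptor-like protein, at 0.622 and 0.844. Single summits lay in TEM1 (AT1G25560), a repressor of flowering, at 0.951, in MCA2 (AT2G17780), a calcium channel component linked to mechanical stimuli, at 0.856, and in SAG21 (AT4G02380), a senescence-associated gene, at 0.568. UVR3 (AT3G15620), a photolyase that repairs ultraviolet damage, held the summit nearest to a start, 60 bp from it.

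Col-0-higher summits lay further downstream than tfiis-1-higher ones. Their median position was 0.642 (0.503 to 0.890), against 0.397 (0.386 to 0.409). Within 300 bp of the gene end lay 14 of the 41, 34.1% (20.1 to 50.6), against 86 of 1538 tfiis-1-higher ones, 5.59% (4.50 to 6.86). No test was made, since summits of one gene share their source and 8 of the 31 genes hold 2 or 3 of them. Counted once per gene, the median position of the Col-0-higher genes was 0.733 and that of the tfiis-1-higher genes 0.403.

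The 31 genes were then followed in the lists of heated seedlings. At 10 min 1 of the 31 was Col-0-higher, BT2 (3.23%, 0.0816 to 16.7, beside 0.251% of all genes), while 14 of them (45.2%, 27.3 to 64.0) were tfiis-1-higher, beside 10.9% of all genes. STP1, TEM1, DIN10, BXL1 and TCH4 were among those 14. At 30 min 3 of the 31 were Col-0-higher (9.68%, 2.04 to 25.8), beside 3.16% of all genes, and 5 were tfiis-1-higher, beside 16.6%. At 3 h 9 were Col-0-higher (29.0%, 14.2 to 48.0), beside 10.8% of all genes, and 5 were tfiis-1-higher, beside 23.7%. ASN1 was one of 14 genes that were in none of the 6 later lists. BXL1, with 1 Col-0-higher summit at 0.980 before heat, had 3 tfiis-1-higher summits at 10 min and 2 Col-0-higher ones at 3 h.

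**Figure D4:**
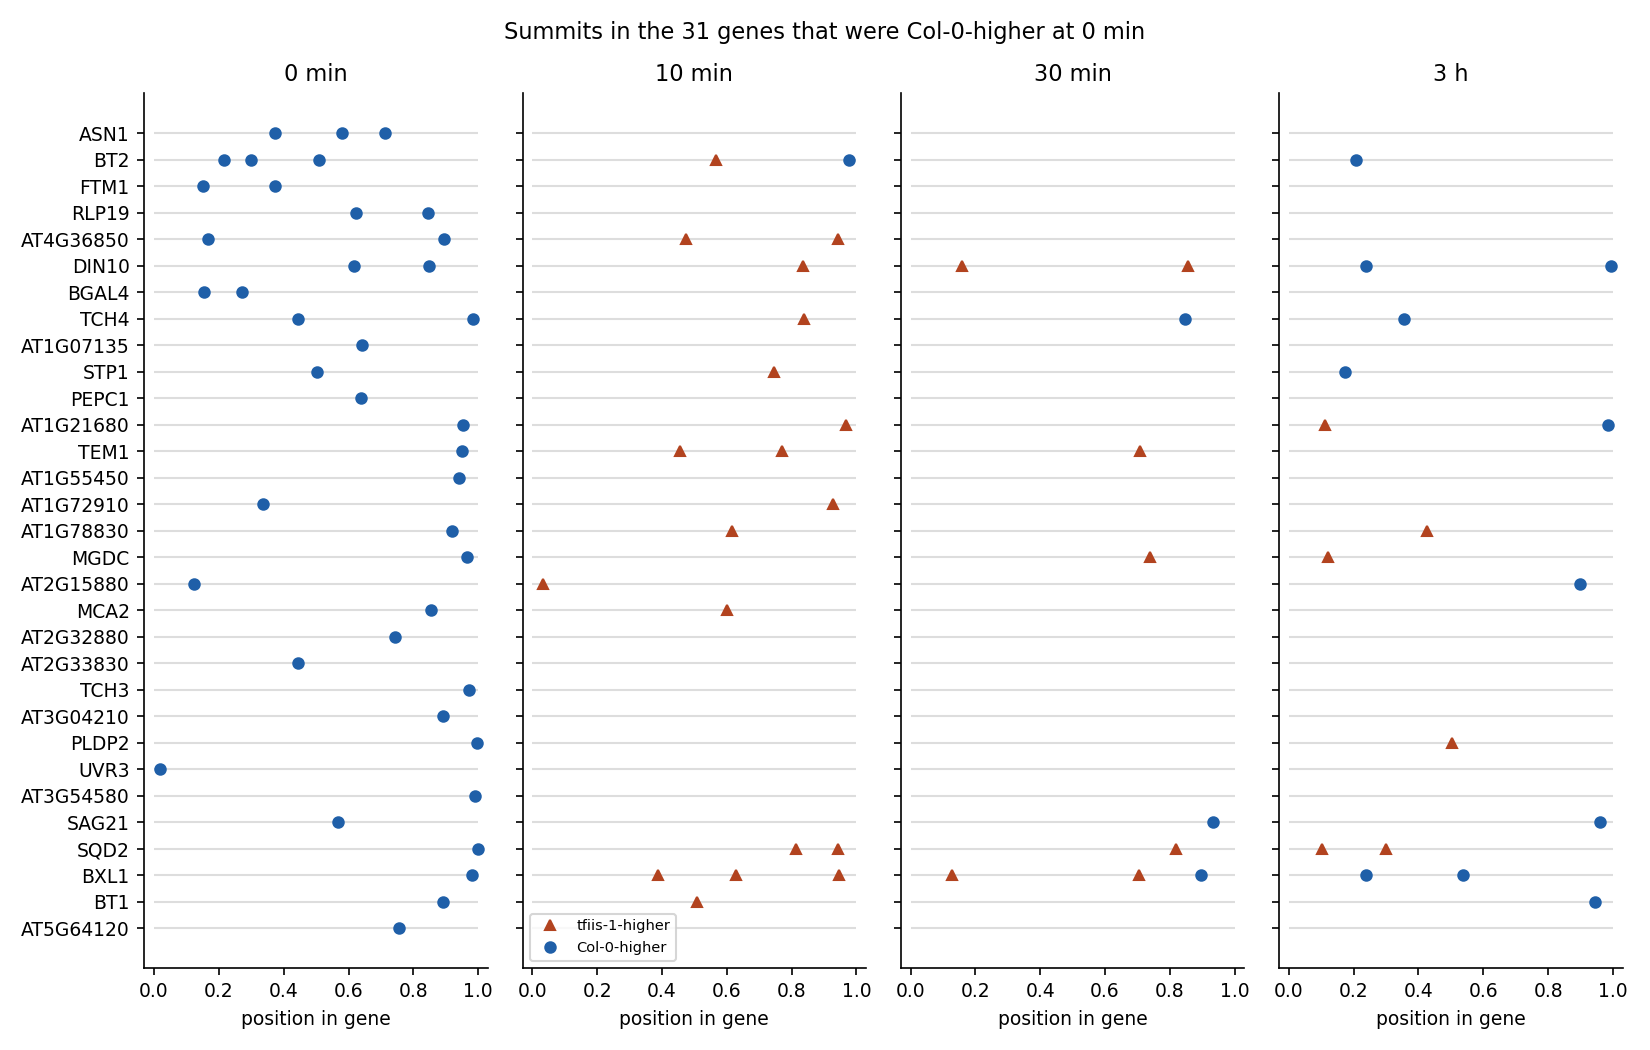
Summits at each time in the 31 genes that were Col-0-higher at 0 min, placed by position in the gene from 0 (start) to 1 (end); triangles are tfiis-1-higher and circles Col-0-higher summits, and each row is a gene, ordered by its number of summits at 0 min. At 10 min 14 of the genes carry triangles and 1, BT2, carries a circle.

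Most genes that were tfiis-1-higher before heat were met again in tfiis-1-higher lists of heated seedlings, which come from other libraries. At 10 min 711 of the 1345 were in that list (52.9%, 50.2 to 55.6). The number was 1050 at 30 min (78.1%, 75.8 to 80.3) and 1083 at 3 h (80.5%, 78.3 to 82.6). Those lists held 10.9%, 16.6% and 23.7% of all genes, and the shared genes were 23.8%, 23.1% and 16.7% of them. Longer genes are called more often in the unheated list, and the part of gene length in these overlaps was not tested. At all 4 times 538 genes were tfiis-1-higher, 40.0% of the unheated list, and 401 more were so at 30 min and 3 h but not at 10 min. In the 538 genes the mean number of summits per gene was 1.23 without heat, 1.496 at 10 min, 2.19 at 30 min and 2.08 at 3 h.

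Where the summits lay in these genes differed between the times, most of all at 10 min. For each shared gene the mean summit position at 0 min was subtracted from that at the later time. At 10 min the median difference was 0.313 of the gene (0.282 to 0.333), with 617 of 711 genes further downstream. At 30 min it was 0.0893 (0.0656 to 0.112), with 714 of 1050 further downstream, and at 3 h it was -0.00136 (-0.00873 to 0.00496), with 532 of 1083 further downstream. A mean per gene does not show the spread of summits. Over the whole tfiis-1-higher lists, the first 0.1 of the gene held 2.08% of summits at 0 min and 11.7% at 3 h. A summit within 500 bp of an unheated one was found in 347 of the 711 genes at 10 min, in 879 of 1050 at 30 min and in 894 of 1083 at 3 h. More summits in a gene offer more places for a near one, and the part of summit number in these counts was not tested. XRN4 (AT1G54490), for example, had 1 summit at 0.11 before heat, 1 at 0.96 at 10 min and summits at 0.11, 0.55 and 0.64 at 30 min. BZIP60 went from 0.51 to 0.96 at 10 min, and FCA was at 0.23 at both times.

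**Figure D5:**
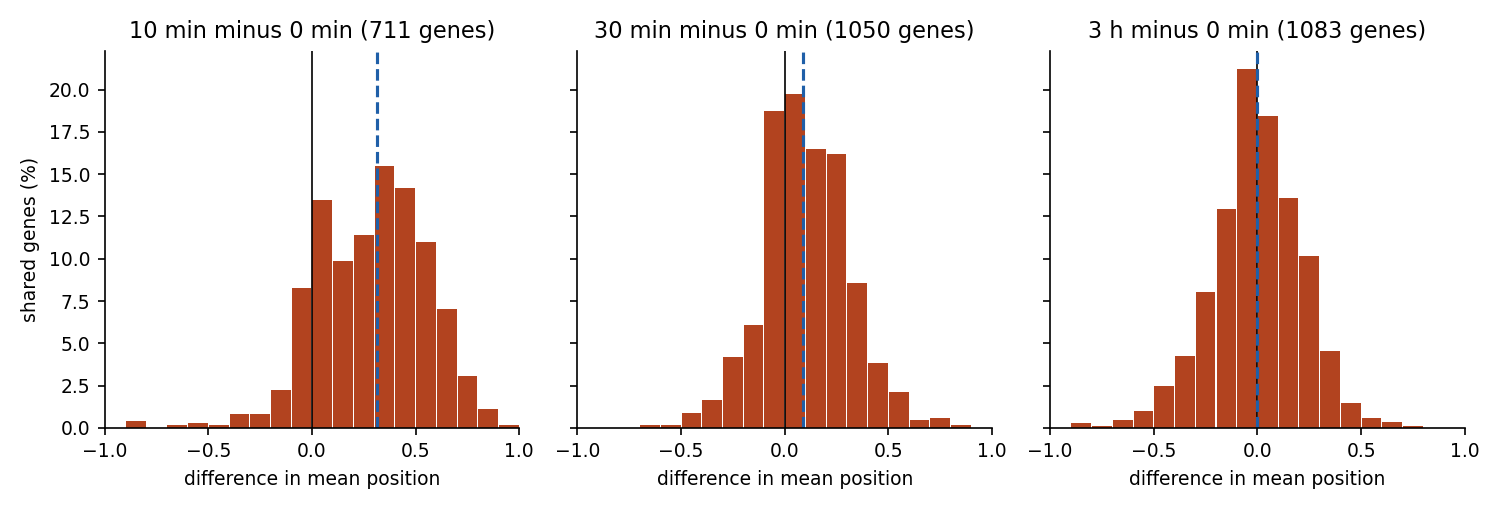
Difference in mean summit position, later time minus 0 min, for genes tfiis-1-higher at both, in percent of the shared genes per bin of 0.1; positive values lie further downstream. The solid line is 0 and the dashed line the median, 0.313 at 10 min, 0.0893 at 30 min and -0.00136 at 3 h.

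Some of the genes were Col-0-higher at a later time. Of the 1345 genes 2 were Col-0-higher at 10 min (0.149%, 0.0180 to 0.536), which was no more than the 0.251% of all genes. The number was 147 at 30 min (10.9%, 9.31 to 12.7, beside 3.16% of all genes). At 3 h it was 428 (31.8%, 29.3 to 34.4, beside 10.8%). The Col-0-higher summits in them lay elsewhere in the gene. At 3 h they were a median of 0.539 of the gene (0.518 to 0.567) downstream of the unheated summits, in 414 of 428 genes, and 44 of the 428 had one within 500 bp of an unheated summit. At 30 min the median was 0.604 (0.550 to 0.629), in 143 of 147 genes. Over the whole Col-0-higher lists the median position was 0.952 at 30 min and 0.954 at 3 h. A place near the gene end was thus not particular to these genes. HAC1, for example, held tfiis-1-higher summits at each of the 4 times, and at 3 h a Col-0-higher summit at its end.

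Finally, 87 of the 1345 genes were in no list of any heated time. They were shorter, with a median of 1810 bp against 3128 bp for the 538 genes called at all times, and their median summit position was 0.515 (0.458 to 0.592) against 0.382 (0.367 to 0.401). In base pairs their median summit lay 849 bp from the start (718 to 936), against 1150 bp (1113 to 1219). The other 720 genes had a median length of 2857 bp and a median summit position of 0.400. Summit position varied with gene length over the whole unheated list. In genes of more than 1500 and up to 2000 bp its median was 0.483. The part of gene length in this comparison was not tested. Chosen after their values were seen, examples of the 87 genes are STOMAGEN (AT4G12970), the peptide that promotes stomata, with a summit at 0.582, BBX31 (AT3G21890), a B-box protein, at 0.313, and MPK1 (AT1G10210), a mitogen-activated protein kinase, at 0.925.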

How the data were processed

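Per the labels' protocols, chromatin was immunoprecipitated with antibody ab5095. The submitters' processing notes name Bowtie2, FastQC, MACS3, deepTools and build TAIR10. How genotypes were scaled, where calls were cut off and whether replicates were pooled is not stated there, and a scaling step acts on every call.

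The authors deposited 2 unheated lists of summits with their genes (1629 and 48 lines); direction was read from their names. A deposited score per summit, present only in lists of heated seedlings, was not used. Repeated lines were counted once. Positions, lengths and symbols came from the RefSeq table of TAIR10.1, whose intervals equalled all 922 gene intervals in the files. Without values per library no test was made. Interval code was tested on simulated data. Group members whose identifier that table does not name were left out. Promoters and sequences were not analysed here.

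The members, gene groups and rules were chosen with earlier results of these data known. The rule for named genes took all Col-0-higher genes with a symbol, the 10 genes with most summits (ties to the shorter gene), the 5 summits nearest each gene end, the 3 longest and shortest genes (the last 2 rules among genes with a symbol), up to 8 members per group, up to 8 group genes called at all 4 times, and TFIIS. Alternatives were counting genes, merging within 300 bp, genes of at least 1000 bp, other backgrounds and distance limits. Software was pandas 2.3.3, scipy 1.17.1 and numpy 2.4.6 under Python 3.11.15, with matplotlib 3.10.9 for plots.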

Additional observations from a re-analysis of the deposited data

How the results depend on the processing

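No paired analysis was possible because the lists hold no value per library; for the same reason no replicate could be left out. The tfiis-1-higher summit count, the share in each direction, the median positions, the gap between summits and the shares of the gene groups moved by less than their intervals or by less than 1.5 times under the alternatives tried, and 9 values of other results moved by more. Without the genes that hold 2 or more summits, an alternative chosen after seeing the data, 23 of the 41 Col-0-higher summits were left. The ratio of median gene lengths, 1.39 for tfiis-1-higher over all genes, was 1.26 among genes of at least 1000 bp and 1.12 against the 9113 genes in any of the 8 lists. The background share of 4.9% was 5.71% and 14.8% in the same order. Among the genes in any of the 8 lists, the SR share was 50% instead of 40%. The clock share was 40% instead of 25%, and that of RNAPII subunits and elongation factors was 20%. The jasmonate share doubled from 10% to 20% within its wide interval. Relative to the background, the shares of groups with called genes were thus lower. The unfolded protein response and actin groups, above 4.9% before, lay below 14.8%. Asking for a summit no more than 500 bp away gave 347 genes at 10 min instead of 711, and within 100 bp 196 at 10 min, 580 at 30 min and 516 at 3 h. All 9 moves came under alternatives that leave out genes or set a narrower distance. The genes in any of the 8 lists were themselves long, with a median of 2585 bp against 2078 bp over all genes. What the sequencing depth limits is unknown.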

Other observations

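Rosters of hormone signalling and phosphate starvation were added after the lists were seen, so their counts are descriptions. Among 12 ethylene-signalling genes, 3 were tfiis-1-higher without heat: EIN2, EIN3 (AT3G20770), its main transcription factor, and EIL1 (AT2G27050), a relative of EIN3. Their summits lay at 187, 323 and 639 bp from the start, all nearer to it than the median of the whole list, 1104.5 bp. In the abscisic acid roster 6 of 30 genes were called: the receptors PYR1 and RCAR3, the phosphatases HAB1, HAB2 and PP2CA, and the kinase SNRK2.2. The other members of this roster were not called. The first summit of each of the 6 lay between 293 and 537 bp from the start, and HAB1 had another 69 bp from its end. In the brassinosteroid roster 6 of 18 were called, among them BES1, BEH1 and BEH2, which are transcription factors of that pathway, and BKI1, an inhibitor of the receptor. In the auxin roster 6 of 21 were called: the receptors TIR1 and AFB2 and the response factors ARF1, ARF2, ARF10 and ARF16. Of 9 gibberellin receptor and DELLA genes, the DELLA repressors GAI and RGA1 were called. These shares, from 20% to 33.3%, stand beside 4.9% of all genes, and the rosters have median lengths from 2089 to 3773 bp against 2078 bp.

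None of the 22 phosphate-starvation genes was tfiis-1-higher, and 4 were Col-0-higher (18.18%, 5.19 to 40.3, beside 0.113% of all genes). They were PEPC1 (AT1G17710), a phosphatase of phospholipid head groups, PLDP2 (AT3G05630), a phospholipase D, MGDC (AT2G11810), a galactolipid synthase, and SQD2 (AT5G01220), the sulfolipid synthase, all known for replacing membrane phospholipids when phosphate is short. Apart from PEPC1, their summits lay 21, 131 and 3 bp from the gene end.

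Among 171 families of genes that share the letters of their symbol and have at least 10 members, 75 had no tfiis-1-higher gene, and the median share called was 4.35%. The highest shares were in the CKL family, with 4 of 10 called, and the HCF family, with 4 of 12. Next came the plant U-box proteins (PUB), with 7 of 22, and the UBP family of ubiquitin-specific proteases, with 9 of 29. The UBP genes had a median length of 4196 bp. These families were picked by their shares. Genes with a symbol were called more often than those without, 6.86% against 3.71%, and were longer, with a median of 2487 bp against 1835 bp.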
